A study of Mus musculus with 2 samples.

Results

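The counts of single cells sorted as cones from *Pde6c* mutant retinae were examined for 10 genes of the ribbon synapse and of vesicle release, namely *Ctbp2*, *Bsn*, *Pclo*, *Syt1*, *Snap25*, *Vamp2*, *Slc17a7*, *Cplx3*, *Cplx4* and *Stx3*. They were taken from a list of names, chosen with earlier results of these data known. All 10 had a row among the 17774 genes deposited and stayed among the 15947 genes kept by the filter. Both groups of mice carried the *Pde6c* cpfl1 mutation together with eGFP driven by the *Chrnb4* promoter, which marks cones, and the labels give the strain as C57BL/6. One group was uninjected, and the other received GSK-J4, a blocker of the enzymes that remove methyl groups from H3K27, as an intravitreal injection at PN14. The dose of 10 µM is the final concentration in the eye, which the study derived from an assumed vitreous volume. Retinae were collected at PN24, 10 days after the injection, dissociated with papain and sorted by GFP fluorescence at 1 cell per well. Each condition was 1 library on 1 plate, without a wild-type or vehicle-injected library here, so that plate, injection and drug cannot be told apart. The comparison of the conditions has no replicates.

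Photoreceptors signal to bipolar and horizontal cells through ribbon synapses, where a protein plate in the terminal holds synaptic vesicles close to the calcium channels and glutamate is released continuously in the dark. The ribbon is built mainly of RIBEYE, a product of *Ctbp2*, and is anchored by bassoon (*Bsn*), while piccolo (*Pclo*) is its large relative in the active zone. Vesicles are filled with glutamate by the transporter VGLUT1 (*Slc17a7*), and fuse through SNARE proteins of the vesicle (*Vamp2*) and of the plasma membrane (*Snap25* and syntaxin 3, *Stx3*). Syntaxin 3 and the complexins 3 and 4 (*Cplx3*, *Cplx4*), which clamp and assist the SNARE complex, are the forms known from retinal ribbon synapses, in place of the syntaxin 1 and complexins 1 and 2 of conventional synapses. Synaptotagmin 1 (*Syt1*) is a calcium sensor of fusion. Rods and bipolar cells use many of the same genes, and so none of the 10 identifies a cone by itself.

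A count of *Ctbp2* joins products of different starts. In GENCODE vM21 on GRCm38 the gene lies on the minus strand of chromosome 7 (chr7:132987563-133124354), and its longest product, of 988 codons, comes from a transcript that starts at position 133015248, inside the gene. Transcripts that start at 133123367 and 133123166 encode 445 and 420 codons. By size and position the first is the RIBEYE form and the others are CtBP2, a nuclear corepressor found in most cells, and the deposited counts do not separate them. RefSeq windows of 250 bases before to 50 after a start were held for 7 of the 10 genes, in 9 windows, with none for *Snap25*, *Vamp2* and *Cplx4*. They were searched on both strands for TAATCC, or its reverse complement GGATTA, a core that the photoreceptor homeodomain factor CRX binds. The letters were in 1 of the 2 windows of *Ctbp2*, in the window of *Stx3*, and in none of the windows of *Bsn*, *Cplx3*, *Pclo*, *Slc17a7* and *Syt1*. Of all 32851 RefSeq windows of this length, 7.06% held them. The *Ctbp2* match began at base -121 relative to the RefSeq start of the RIBEYE form, the start that tells the ribbon product from CtBP2. RefSeq places that start at 133015247, beside 133015248 in GENCODE. The 250 bases before that start (chr7:133015248-133015497, minus strand, RefSeq on GRCm38.p6), 5′ to 3′ with the match in capitals, read:
Ctbp2, RIBEYE start: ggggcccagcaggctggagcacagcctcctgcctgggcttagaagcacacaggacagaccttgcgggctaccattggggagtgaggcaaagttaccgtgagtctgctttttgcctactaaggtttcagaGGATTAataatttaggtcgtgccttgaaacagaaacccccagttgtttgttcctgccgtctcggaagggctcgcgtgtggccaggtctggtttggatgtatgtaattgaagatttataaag
In *Stx3*, the gene found in the most uninjected cells below, the match began at base 31 after the RefSeq start, and is shown with 12 bases on each side (chr19:11819356-11819385, minus strand):
Stx3, match after the start: ccactagcatcaTAATCCccaaattcctcg
This RefSeq start of *Stx3* is at 11819403, whereas its protein-coding transcripts in GENCODE vM21 start between 11818721 and 11818942, further inside the gene. A match of letters is a description and not a binding site. The matches were not set against any value of the cells.

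After the filter, 82 of 85 uninjected cells and 64 of 66 cells of the GSK-J4-treated library remained. Uninjected cells held a median of 8118 counts (860 to 98250) and treated cells 2336 (420 to 15371). The cell type label was checked against 11 cone markers: all 82 uninjected cells held at least 6 cone marker counts, whereas 50 of the 64 treated cells held none and 5 of the 11 markers, among all treated cells, were at 0. Cone markers took 2.59% of uninjected and 0.213% of treated counts, and rod markers 0.255% and 0.0201%. Cell names of the treated library hold the word adult, although the labels give PN24. The treated cells are therefore called by their library and not by a cell type.

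In uninjected cones *Stx3* was found in the most cells and *Ctbp2* in the fewest. *Stx3* had 642 counts in 65 of the 82 cells (79.3%, 95% Clopper-Pearson interval 68.9 to 87.4), with 0, 2.36 and 34.7 counts per 10000 in the lowest, median and highest cell. The next 6 genes, *Vamp2*, *Cplx3*, *Cplx4*, *Syt1*, *Slc17a7* and *Snap25*, were found in 57.3% down to 50% of cells, and the intervals of their shares overlap, so that no order among them can be read. They join both SNARE partners of syntaxin 3, both ribbon complexins, the calcium sensor and the glutamate transporter. Among the scaffold genes, *Pclo* was found in 36.6% (26.2 to 48.0), *Bsn* in 24.4% (15.6 to 35.1) and *Ctbp2* in 14.6% (7.80 to 24.2). The interval of *Pclo* overlaps those of the 6 genes above, and within columns 1 to 6 of the plate *Pclo* was found in 48.7% of cells. All intervals cover counting error only.

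Levels were compared per length of annotated exons. On the scale of mean counts per 10000 per kb of exon, *Stx3* stood at 0.855, *Cplx4* at 0.609, *Vamp2* at 0.491, *Cplx3* at 0.432, *Syt1* at 0.314, *Slc17a7* at 0.287 and *Snap25* at 0.283. The scaffold genes *Pclo*, *Bsn* and *Ctbp2* stood at 0.0362, 0.0322 and 0.0262. Between cells the SD was larger than the mean for every one of the 10 genes, as for *Stx3* with 4.88 ± 7.07 counts per 10000 (SD, n = 82 cells), and no neighbours in this order differ beyond that spread. Reads were summed from 3′ and 5′ ends, and whether they cover long transcripts such as that of *Pclo*, with 22.5 kb of exon, as evenly as short ones was not tested.

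As a measure of stray counts, 396 kept genes with olfactory or vomeronasal receptor symbols, which are receptors of the nose, were found in a median of 3.66% of uninjected cells, with a 90th percentile of 12.2% and a highest value of 87.8%. In treated cells these values were 3.12%, 10.9% and 70.3%. In the uninjected library the intervals of 9 of the 10 synapse genes lay above that 90th percentile, and that of *Ctbp2* included it. In the treated library the interval of *Bsn* lay above its 90th percentile, and those of the other 9 included it or lay below it. There *Ctbp2*, *Slc17a7* and *Cplx4* were found in 3.12% of cells, *Cplx3* in 1.56% and *Vamp2* in 0%, at or below the median of the receptor genes, and these shares are read as background.

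**Figure D1:**
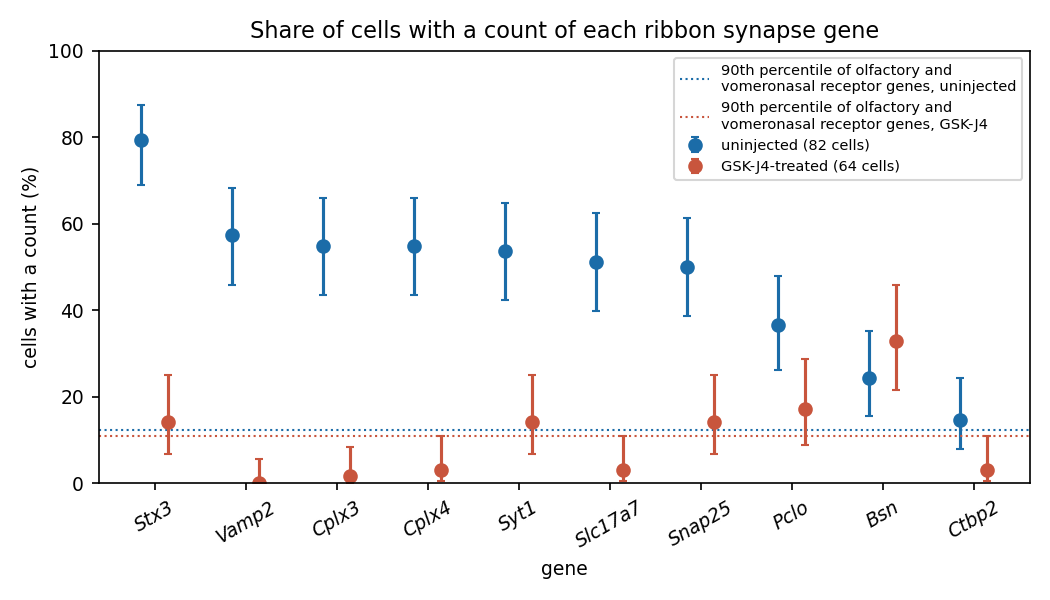
Percent of cells with at least 1 count of each gene (y axis) in the uninjected (82 cells) and GSK-J4-treated (64 cells) libraries, with 95% Clopper-Pearson intervals as bars; dotted lines mark the 90th percentile of 396 olfactory and vomeronasal receptor genes in each library. Uninjected shares run from 79.3% for *Stx3* to 14.6% for *Ctbp2*, and *Bsn* is the only gene with a higher point in the treated library, at 32.8%.

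The genes were not found together in every cone. An uninjected cell held a count of 5 of the 10 genes at the median, with a range from 0 to 10: 2 cells held all 10, 42 of 82 held at least 5, and 6 held none (7.32%, 2.73 to 15.2). Deeper cells held more of them, with a Spearman correlation between genes found and total counts of 0.88 over the 82 cells, which share 1 plate. When each cell was thinned to 867 counts, the expected number found fell to a median of 1.03 genes. Most zeros of an uninjected cone therefore cannot be told from shallow sequencing. Among the 45 pairs of the 10 genes, the correlation of counts per 10000 over cells had a median of 0.14 and ran from -0.11 to 0.41, and correlations this weak in sparse counts are no finding.

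A few cones held a large part of the counts of single genes. The cells with the most counts of any of the 10 genes were 5 cones, picked after the values were seen. Cell 1, with 46057 counts in all, held 129 of the 307 *Vamp2* counts (42.0%), 55 of the 151 *Cplx4* counts and 35 of the *Slc17a7* counts. Cell 2 held 192 of the 413 *Syt1* counts (46.5%), and only 2 of *Vamp2*. Cell 5 held 58 of the 124 *Pclo* counts (46.8%) and 38 of *Slc17a7*. Cell 4, the deepest of the 5 at 75174 counts, led for *Stx3* with 106 counts, and cell 3 for *Snap25* and *Cplx3* with 36 and 17. Each of them held 1324 to 2286 cone marker counts, 1.98% to 5.79% of its total, against 1 to 10 bipolar, 0 to 7 amacrine and 76 to 163 rod marker counts. All 5 thus carried cone markers, and as each was picked for the gene it led in, that the leading genes differ between them is no finding.

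**Figure D2:**
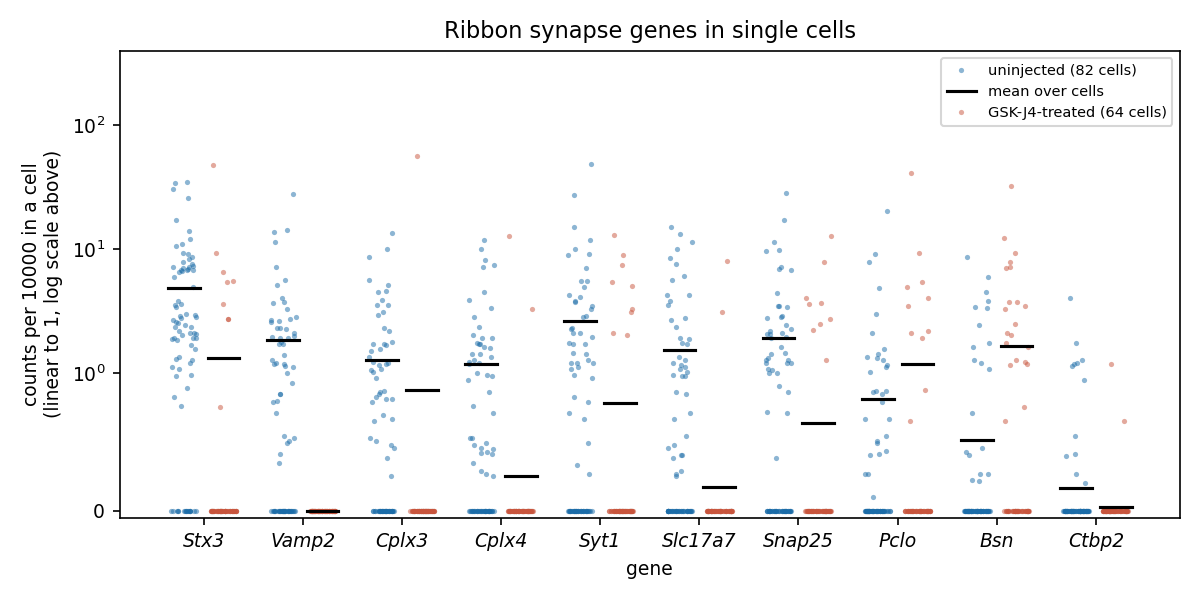
Counts per 10000 of each gene in single cells (y axis, linear to 1 and logarithmic above), with 1 point per cell and a black bar at the mean over cells, with 82 cells uninjected and 64 treated with GSK-J4. *Stx3* reaches 34.7 and *Syt1* 48.7 in an uninjected cell, most treated cells sit at 0, and the treated mean of *Cplx3* rests on 1 cell at 56.1.

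The uninjected plate was not uniform, and its left and right sides differed in the mean levels of some release genes. Of the uninjected cones, 39 lay in columns 1 to 6 and 43 in columns 7 to 12, with medians of 8819 and 7163 counts. The 10 genes together took 0.210% and 0.187% of the counts of these sides, and cone markers 2.48% and 2.69%. Sides were compared as an average log-fold, the natural log of the mean counts per 10000 plus 1 in columns 7 to 12 minus that in columns 1 to 6. Beyond 0.3 in this measure lay 3 genes higher and 3 lower in columns 7 to 12, of 10. Of all 8823 genes tested, 14.6% were higher and 15.9% lower, so that many other genes divided by side as well. As both sides are 1 library, no test was made.

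*Vamp2*, *Slc17a7* and *Cplx4* were higher in columns 7 to 12. *Vamp2* had 52 counts in columns 1 to 6 and 255 in columns 7 to 12 (log-fold 0.85, and 0.74 without the cell with the most counts on each side). *Slc17a7* was found in 33.3% of cells (19.1 to 50.2) of columns 1 to 6 and 67.4% (51.5 to 80.9) of columns 7 to 12, 2 intervals that do not overlap, with a log-fold of 0.61. *Cplx4* had 38 and 113 counts and a log-fold of 0.33. For *Vamp2* (46.2% and 67.4% of cells) and *Cplx4* (43.6% and 65.1%) the intervals of the shares overlap. Cell 1, in columns 7 to 12, held 129 of the *Vamp2*, 55 of the *Cplx4* and 35 of the *Slc17a7* counts. Without the top cells the log-folds of *Slc17a7* and *Cplx4* were 0.78 and 0.34. Thus the mean levels of the vesicle SNARE, the glutamate transporter and a ribbon complexin were higher on the same side.

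*Syt1* and *Pclo* went the other way. *Syt1* had 353 counts in columns 1 to 6 and 60 in columns 7 to 12, in 66.7% and 41.9% of cells, with a log-fold of -0.86 and of -0.94 without the top cell of each side. *Pclo* had 109 and 15 counts and a log-fold of -0.74, or -0.53 without the top cells. For both genes the intervals of the shares of cells overlap between the sides. *Stx3* lay at the threshold, with a log-fold of -0.30, and *Cplx3*, *Snap25*, *Bsn* and *Ctbp2* lay within it at -0.05, 0.09, 0.07 and 0.24. The values without the top cells were added after the values had been seen. Rod markers took 0.324% of counts in columns 1 to 6 and 0.189% in columns 7 to 12, and bipolar markers 0.0124% and 0.0125%, and their part in these differences was not tested.

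**Figure D3:**
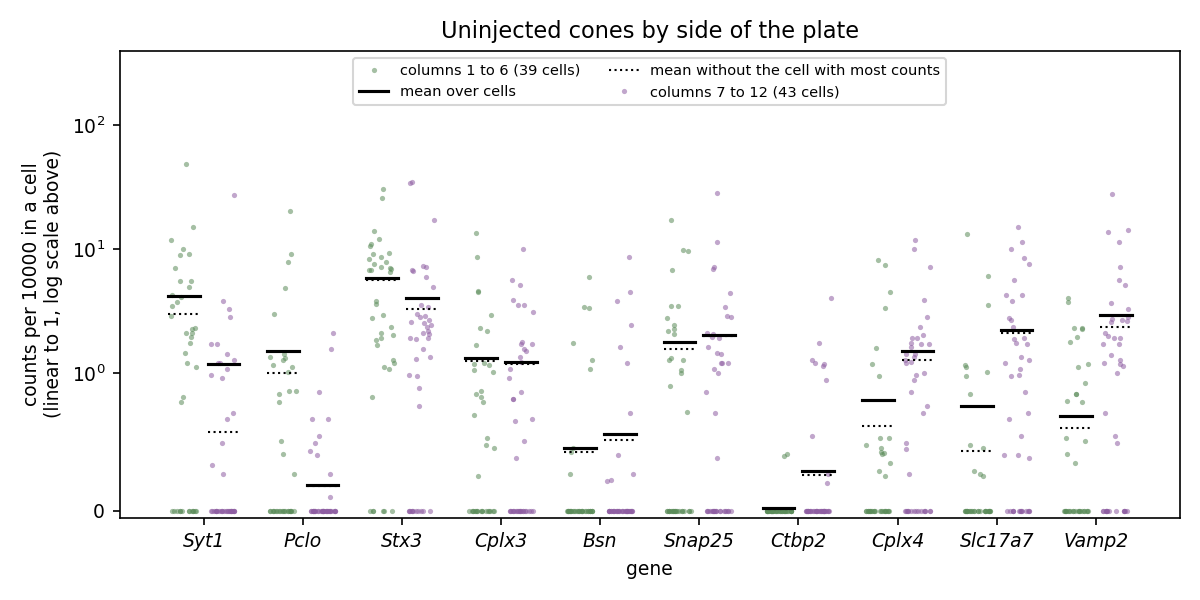
Counts per 10000 of each gene in single uninjected cones (y axis, linear to 1 and logarithmic above) of columns 1 to 6 (39 cells) and columns 7 to 12 (43 cells), with solid bars at the mean and dotted bars at the mean without the cell with the most counts. Genes run from *Syt1*, with means of 4.19 and 1.19, to *Vamp2*, with means of 0.687 and 2.94.

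The study asked how GSK-J4 changed transcription in these cones, and the next comparison sets the treated library against the uninjected one for each of the 10 genes. Together they took 0.198% of uninjected counts (2210 counts) and 0.0585% of treated counts (122 counts). Mitochondrial counts, at a median per cell of 0.952% and 0.0146%, were also lower in the treated library. By average log-fold, 6 of 10 lay lower in the treated library by more than 0.3, 1 lay higher and 3 lay within, with a median of -0.57. Of the 7682 genes tested, 24% were lower and 20.4% higher, with a median of 0.00. A gene was tested if it had a count in at least 10% of cells of either library, and 5 of the 10, *Ctbp2*, *Vamp2*, *Slc17a7*, *Cplx3* and *Cplx4*, passed through the uninjected library alone, as did 4545 of all genes tested. A gene admitted only through its uninjected share had to differ in its share of cells, though not by 0.3 in log-fold. This favours lower calls, so the count of lower genes is no support. Cone and rod markers also took smaller shares of the treated library, and the part of these and of mitochondrial counts in the values was not tested.

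The 3 SNARE genes among the 10 were lower in the treated library by more than 0.3, whereas the wider fusion list described further on had a median of -0.07. *Vamp2* had 307 counts in uninjected and 0 in treated cells, where 0 of 64 cells allows a share of up to 5.60% with a UMI (Clopper-Pearson), which sets no limit on the share of cells that express it at this depth. Against a floor of 3 counts over the treated library it was at least 19.2-fold lower per total counts, and its log-fold was -1.05. Cell 1 held 129 of these counts, and without it the bound was 11.6-fold. *Stx3* had 642 and 23 counts, found in 79.3% and 14.1% (6.64 to 25) of cells, with a log-fold of -0.93. Per total counts the uninjected library held 5.23 times as much *Stx3* (exact interval 3.45 to 8.31). *Snap25* had 198 and 14 counts and a log-fold of -0.58, with treated cells at 0 in the lowest and median and 12.7 counts per 10000 in the highest cell. Over the cells with at least 867 counts alone, which drops 14 treated and 1 uninjected cell, the log-folds of *Vamp2*, *Stx3* and *Snap25* were -1.06, -0.79 and -0.48.

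*Syt1*, the calcium sensor, had 413 counts in uninjected and 28 in treated cells, in 53.7% and 14.1% of cells, with a log-fold of -0.71. This value was tied to a side of the plate. Within columns 1 to 6 of both plates the log-fold was -1.30, and within columns 7 to 12 it was -0.01. The uninjected means were 4.19 and 1.19 counts per 10000 on these sides, and the treated means 0.417 and 1.18. The treated means rest on 3 counts in 3 of 33 cells (9.09%) and 25 counts in 6 of 31 cells (19.4%). Counts this few cannot show whether the treated library differed by side. The division by side was smaller for *Snap25*, at -0.74 and -0.44.

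*Slc17a7* had 167 counts in uninjected and 2 in treated cells, in 51.2% and 3.12% of cells, with a log-fold of -0.77 and a ratio of 15.6 in the uninjected library per total counts (exact interval 4.26 to 130.2). Without the uninjected top cell the ratio was 12.4. Each of its 2 treated cells held 1 count, so leaving out either must raise the ratio, and that ratio is not given. The same gene stood at -0.35 within columns 1 to 6 and at -1.08 within columns 7 to 12. A second vesicular glutamate transporter, *Slc17a8*, stood on the other side of 0. *Slc17a8* had 218 and 58 counts in 51.2% and 35.9% of cells, and its log-fold was 0.45.

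The complexins differed in how far their values held. *Cplx4* had 151 and 2 counts, with a log-fold of -0.56 that became -0.20 within columns 1 to 6 and -0.93 within columns 7 to 12. *Cplx3* had 133 counts in 45 uninjected cells and 5 in treated cells, all 5 in 1 cell of 891 counts. That cell stood at 56.1 counts per 10000 and set the log-fold of *Cplx3*, which was -0.19 with it and -0.80 without the cell with the most counts of each library. Within columns 1 to 6, which hold that cell, the log-fold was 0.15. As summed counts, *Cplx3* was 4.98 times as high in the uninjected library (2.08 to 15.6), and 4.5 times without the uninjected top cell. Leaving out the treated top cell would remove all 5 treated counts, so no ratio is drawn from that.

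Of the 3 scaffold genes, *Bsn* lay higher in the treated library and *Pclo* and *Ctbp2* lay within 0.3. *Bsn* had 49 counts in 20 uninjected cells (24.4%) and 30 in 21 treated cells (32.8%, 21.6 to 45.7), with highest cells of 8.60 and 32.5 counts per 10000 and a median of 0 in both. Its log-fold was 0.57, and per total counts the treated library held 3.27 times as much (exact interval 2 to 5.25). No cell held more than 6 counts of *Bsn*, and 18 of the 21 treated cells held a single one. The log-fold stayed above 0.3 with every other processing except size factors by the median of ratios, where it was 0.27 and the median of all genes tested moved to -0.14. After thinning, *Bsn* was expected in 3.95% of uninjected and 12.4% of treated cells.

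*Pclo* had 124 and 16 counts, in 36.6% and 17.2% of cells, and its direction was not settled, with a log-fold of 0.19 as a mean over cells, -0.18 over summed counts and -0.46 with median-ratio size factors. *Ctbp2* had 26 and 2 counts and a log-fold of -0.12, with a ratio of 2.44 in the uninjected library and an interval from 0.610 to 21.2. This depth cannot show whether *Ctbp2* differed. Exons of *Pclo* share 429 and 496 bases with *Gm26918* and *Gm26954*, annotated on the other strand. Those of *Ctbp2* share 314 with *Fgfr2*, annotated on the same strand. The sources used here give neither the strand setting of the counting nor its handling of shared reads. How such reads were counted is therefore not known.

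**Figure D4:**
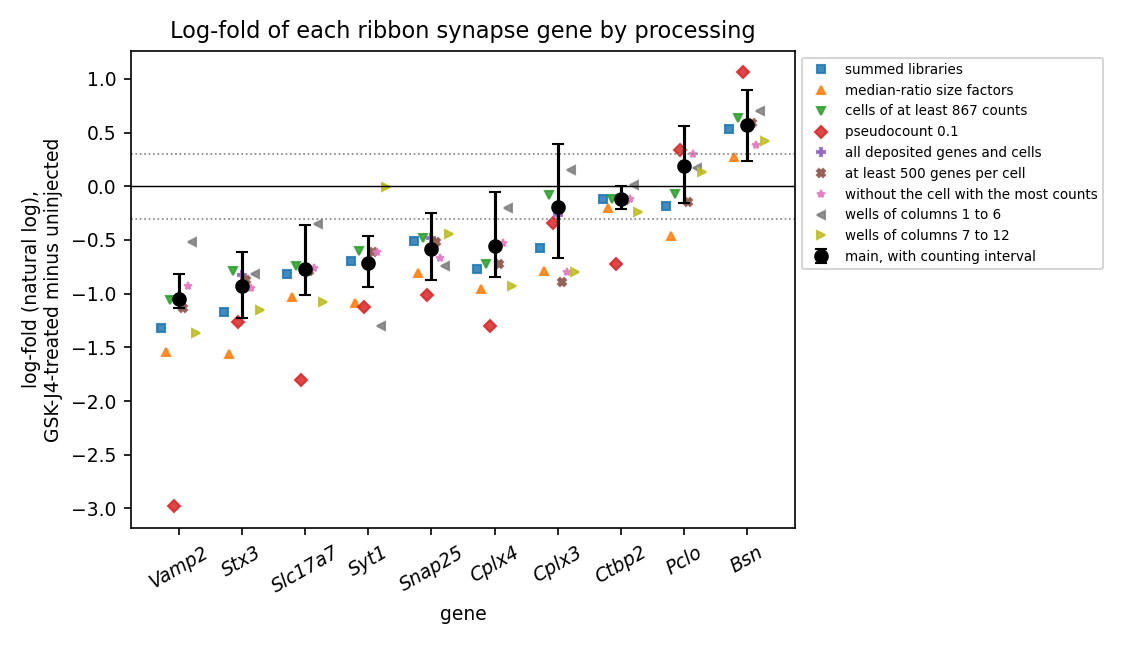
Average log-fold of each gene (y axis, natural log, GSK-J4-treated minus uninjected) as computed in the main setting (black, with counting intervals) and under 9 other settings (coloured symbols); dotted lines mark 0.3 in each direction. *Vamp2*, *Stx3*, *Slc17a7* and *Snap25* stay below the lower line in every setting, *Syt1* reaches -0.01 within columns 7 to 12, and *Pclo* has points on both sides of 0.

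A treated cell held a count of 1 of the 10 genes at the median, from 0 to 4, and 24 of 64 held none (37.5%, 25.7 to 50.5). After thinning to 867 counts, which left out 14 treated and 1 uninjected cell, the expected medians were 0.326 genes in treated and 1.03 in uninjected cells. The treated cells were then divided by whether they held a cone marker count. The 14 with one had 43 counts of the 10 genes, 0.0621% of their total (0.0450 to 0.0837), and the 50 without had 79 counts, or 0.0567% (0.0449 to 0.0706). These intervals overlap, and both lie below the 0.198% of uninjected cones. In cells with a cone marker count, *Syt1* had 15 counts, *Bsn* 14 and *Pclo* 6, and *Vamp2*, *Slc17a7* and *Cplx3* had 0. Cells without one held 21 of the 23 *Stx3* counts and 11 of the 14 *Snap25* counts. They also held 139383 counts in all, against 69195 in the cells with one, at medians of 1826 and 3839.5 per cell. Among all treated cells, 1 held 10 of the *Stx3* counts and another held 6 of the *Snap25* counts, so these divisions rest on few cells.

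Other genes of the synapse were listed by role, 89 in all, of which 47 were tested. Of these, 12 were lower by more than 0.3 in the treated library, 5 were higher and 30 lay within, and their median log-fold was -0.13, beside 24% lower and 20.4% higher among all genes tested. Of the 47, 29 were tested through the uninjected library alone and 4 through the treated library alone, so that these counts, and those of each list below, are descriptions only. The list and the 10 genes above do not share members.

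Among the other synapse genes named here, *Rab3a* and the clathrin light chains had the lowest log-folds. *Rab3a*, a small GTPase of synaptic vesicles, had 290 and 2 counts in 76.8% and 3.12% of cells and a log-fold of -1.39. The clathrin light chains *Cltb* and *Clta* had 335 and 2, and 251 and 0 counts, with log-folds of -1.38 and -1.02, whereas the heavy chain *Cltc* lay at -0.05, and *Dnm3* and *Sh3gl2*, of the dynamin and endophilin families, lay at 0.20 and -0.29. In all, 4 of 10 tested endocytosis genes were lower and 0 higher, with 7 of the 10 tested through the uninjected library alone, the others being the adaptor subunits *Ap2m1* at -0.45 and *Ap2s1* at -0.69. In the fusion list 2 of 8 tested genes were lower and 0 higher, close to the 24% of all genes that were lower. *Napb*, an adaptor that helps take SNARE complexes apart, stood at -0.88, while the related *Napa* lay at -0.25. In the vesicle list 3 of 7 were lower and 2 higher. *Syp* and *Sv2b*, both membrane proteins of synaptic vesicles, stood at -0.33 and -0.32, and *Rab3c* at 0.59 joined *Slc17a8* as the higher ones, with *Syngr1* at -0.24.

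Partners of the scaffold at the active zone were divided. *Cacna2d4*, a subunit of the photoreceptor calcium channel, had 68 and 1 counts and a log-fold of -0.57, and *Erc2*, an active zone scaffold, stood at -0.31. *Cacna1f*, the pore of that channel, and *Cabp4*, which tunes it, lay at 0.08 and 0.05. The measures differed for *Cabp4*, as per total counts the uninjected library held 2.35 times as much (exact interval 1.54 to 3.77). For *Cacna1f* the ratio of treated to uninjected was 1.64, with an interval that included 1 (0.783 to 3.2). *Rims1*, which links vesicles to the channels, had 13 counts in 7.32% of uninjected cells and 33 in 45.3% of treated cells, with a log-fold of 1.01 and a ratio of 13.6 per total counts (6.94 to 28.1). *Bsn* and *Rims1* were both higher in the treated library, as were 20.4% of all genes tested, and *Rims1* was tested through the treated library alone.

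Of 8 tested adhesion genes across the synaptic cleft, *Cadm1* was lower by log-fold at -0.37 and 0 were higher, with *Cadm3* at -0.27, *Nrxn2* at 0.14 and *Elfn2* at 0.10. Per total counts the ratio of treated to uninjected was 1.92 for *Nrxn2* (1.46 to 2.5) and 0.772 for *Cadm1* (0.383 to 1.42). The intervals of *Cadm1*, *Cadm3* and *Elfn2* included 1. Genes known mainly from the dendrite of the bipolar cell formed the next list, and 2 of 5 tested were higher in the treated library, beside 20.4% of all genes. Both were tested through the treated library alone, so that their share of cells had to be higher there, and their count is no support. *Nyx* had 18 counts in 2.44% of uninjected cells and 85 in 56.2% of treated cells, with a log-fold of 1.69, and *Trpm1* had 6 and 14 counts with a log-fold of 0.68. *Grm6*, the glutamate receptor that defines ON bipolar cells, had 24 and 1 counts. The whole bipolar marker list, which also holds *Trpm1* and *Grm6* and of which 7 markers were kept, took 0.0125% and 0.0139% of counts, with 0 to 0.214% in uninjected and 0 to 0.136% in treated cells and 1 marker at 0 in the treated library. Amacrine markers took 0.00530% and 0.0129%. Their part in the values of the synapse genes was not tested. Genes of conventional synapses were sparse in both libraries, with 66 and 21 counts over 7 genes and 0 of 2 tested beyond 0.3.

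The log-fold of a gene moved with the length of its locus over the whole library, and the 10 genes cover this range. Of the 7682 tested genes 99.2% had a span in the annotation, and the Spearman correlation between span and log-fold across genes, which are not independent replicates, was 0.32. Of genes under 10 kb, 43.0% were lower and 13.5% higher, while of genes over 100 kb, 8.26% were lower and 29.8% higher. *Vamp2* (3.90 kb) and *Cplx3* (6.29 kb) were in the shortest class, where the median log-fold was -0.20. *Slc17a7*, *Cplx4* and *Stx3* were in the class from 10 to 50 kb, with a median of -0.03, and lay at -0.77, -0.56 and -0.93. *Bsn* (94.4 kb) and *Snap25* (69.0 kb) shared the next class, with a median of 0.09, and lay on opposite sides of 0. *Pclo* (349 kb), *Ctbp2* (137 kb) and *Syt1* (513 kb) were in the longest class, with a median of 0.15, and *Syt1* at -0.71 lay among the 8.26% of that class that were lower. The part of locus length in these values was not tested.

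**Figure D5:**
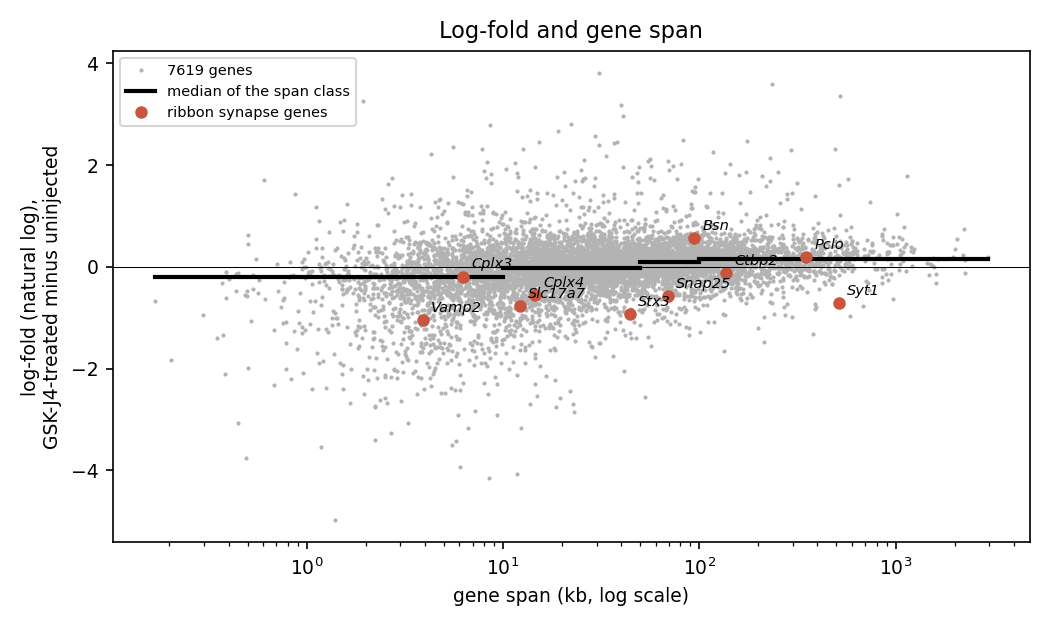
Average log-fold (y axis, natural log, GSK-J4-treated minus uninjected) against the span of the locus in kb (x axis, log scale) for 7619 tested genes in grey, with the 10 ribbon synapse genes in red and black bars at the median of each span class. The class medians run from -0.20 under 10 kb to 0.15 over 100 kb, and *Syt1* and *Bsn* lie away from the bars of their classes in opposite directions.

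For each pattern over the 82 uninjected cones, the most similar genes were named from 786 candidates found in at least 50% of these cells, by the Spearman correlation of counts per 10000. The summed 10 genes were most like *Ccdc107* (0.47), *Map1b* (0.41), *Cox7a2* (0.40), *A930003A15Rik* (0.36) and *Emc4* (0.36). *Vamp2* was most like *mt-Nd3* (0.54), *Cplx3* like *Rabac1* (0.49), *Cplx4* like *Atp7b* (0.49), *Slc17a7* like *Trim3* (0.47), *Snap25* like *Gm15991* (0.44), and *Syt1* and *Stx3* like *Pea15a* and *Rpl36* (0.43 for each). These cells share 1 plate and differ in depth, each value is the highest of 786, and the correlations describe these cells only.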

How the data were processed

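Single cells sorted by FACS as cones were sequenced on 1 plate per condition with an adapted SMARTseq2 and Mars-seq protocol. The deposited values are raw counts, for which the authors split reads by plate, barcode and primer, mapped them with CLC Genomics Workbench, collapsed PCR duplicates by UMI and position, and took 3′ plus 5′ counts from featureCounts on a Gencode annotation. The genome is named with a human build number, GRCh38, for mouse; positions given here follow GRCm38 (GENCODE vM21). No batch correction was applied here.

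Genes in fewer than 3 cells, cells with fewer than 200 genes and cells over 5% mitochondrial counts were removed. Counts were scaled to 10000 per cell, and the average log-fold was the natural log of the mean plus a pseudocount of 1, treated minus uninjected. The threshold of 0.3 is that of the study's methods. With 1 library per condition no p-value was computed. Intervals are exact at 95% (Poisson, Clopper-Pearson, conditional for ratios), and log-fold intervals carry the Poisson interval of each library's sum. A gene at 0 was set against a floor of 3 counts over its library. Thinned shares and numbers of genes found are exact expectations at 867 counts, the 10th percentile. Log-folds and shares of counts do not change by such thinning, and their values at that depth differ only by the cells left out and by equal weights for cells. No doublet caller was run. The calculation was checked on simulated counts. Python 3.11.15, pandas 2.3.3, numpy 2.4.6, scipy 1.17.1 and matplotlib 3.10.9 were used.

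The 10 genes, the synapse and marker lists and the settings were chosen with earlier results of these data known. Named genes were the 10, other listed synapse genes found in at least 25% of cells of either library, and the genes of most similar pattern. *Trpm1* and *Grm6* were named after their values were seen. Depth was a median of 8118 and 2336 counts per cell. The result of 1 listed gene is not reported here.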

Additional observations from a re-analysis of the deposited data

How the results depend on the processing

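The number of the 10 genes lower in the treated library was 6 and stayed between 5 and 8 over 9 other settings. The number higher was 1, and became 0 with size factors by the median of ratios, which moved the median of all genes to -0.14 and the shares lower and higher to 34.0% and 8.14%. It became 2 with a pseudocount of 0.1, and 2 without the cell with the most counts of each gene in each library. The median log-fold of the 10 genes, -0.57, became -0.89 with median-ratio size factors and -1.06 with a pseudocount of 0.1, and lay between -0.66 and -0.27 in the other 7. Among the other synapse genes, 12 lower and 5 higher became 21 and 3 with median-ratio size factors, and 26 and 10 with a pseudocount of 0.1, which called 3143 genes lower and 2935 higher of all tested. The share of uninjected counts on the 10 genes, 0.198%, became 0.170% as an equal-weight mean over cells of at least 867 counts, 0.183% without the top cells, 0.210% in columns 1 to 6 and 0.187% in columns 7 to 12, and the treated share, 0.0585%, became 0.0755% as such a mean, and neither of these means tests the effect of depth. The median number found per uninjected cell fell from 5 to 1.03 after thinning, by the construction of that setting, and for the other changes the cause was not tested. Of 90 log-folds of single genes under other settings, 60 stayed within their counting interval, 30 moved beyond it and 0 of those called changed sign. *Cplx3*, *Ctbp2* and *Pclo*, which were not called, had values of both signs. Of 30 values for the sides of the plate, 28 stayed within their counting interval; the exceptions were *Pclo* without its top cells at -0.53 and *Syt1* over summed sides at -1.29.

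No paired analysis was possible because each condition was 1 library without a replicate number. With 1 plate per condition, variation between animals and between plates has no estimate here. Treated counts are few, at 122 for the 10 genes, and 1 cell held all 5 of *Cplx3*, 43.5% of *Stx3* and 42.9% of *Snap25*, in each case another cell.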
